A study of Mus musculus with 8 samples.

Results

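The KDEL receptors and the cargo receptors that shuttle between the endoplasmic reticulum (ER) and the Golgi were followed as 10 genes of the 48526 in the deposited count table: Kdelr1, Kdelr2, Kdelr3, Surf4, Lman1, Mcfd2, Lman2, Ergic1, Ergic2 and Ergic3. The rule takes them by gene symbol and reads no measured value, but the list was drawn up with earlier results of these data known. All 10 carried enough reads to be among the 15580 genes tested. Each of the 8 libraries was made from total RNA of 5 pooled neuro-intermediate lobes of the C57B6 mouse pituitary, and per the methods the mice were males of 3 months of age. The labels give ribosomal depletion of the RNA, whereas the methods name an mRNA kit. The 4 groups, of 2 libraries each, were WT mice, mice with the POMC_ACreb3l2 transgene, mice with the POMC_AXBP1 transgene, and ACreb3l2/AXBP1 double transgenic mice. ACreb3l2 and AXBP1 encode the leucine zipper of Creb3l2 or XBP1 behind an acidic extension, a dominant negative design that blocks DNA binding of the factor it dimerises with. Both transgenes were driven by the rat POMC promoter, which is active in melanotropes and other POMC cells and not in the rest of the lobe. The comparisons ask what loss of activity of either factor, or of both, does to gene expression in this secretory tissue.

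Soluble proteins that enter the secretory pathway leave the ER in COPII-coated vesicles, and many are loaded into them by membrane receptors that bind cargo in the ER and release it in the Golgi. ER chaperones and folding enzymes that escape by the same route carry a KDEL-type tail at their C terminus, which KDEL receptors bind in the Golgi to bring them back in COPI-coated vesicles. Melanotropes are endocrine cells of the intermediate lobe that make and secrete large amounts of peptides cut from POMC, so the traffic between ER and Golgi is heavy in them.

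Total counts ran from 28256086 to 37988912 per library, and p-values measure the spread between pools, since nothing in the labels ties the 2 pools of a group to separate litters. The labels give melanotropes as the cell type, but the material was whole neuro-intermediate lobe. Pomc stood at 63150 to 159600 CPM (counts scaled to library size, with TMM factors) in the 8 libraries, and the 6 markers of each other cell type tested were also detected in every library (2 for hypothalamic axons, Avp and Oxt, and 3 for red cells). Over the libraries, summed markers ran from 329.4 to 473.8 CPM for pituicytes and astrocytes, 107.9 to 223.8 for endothelium, 248.9 to 359.5 for macrophages, 657.4 to 975.1 for fibroblasts and pericytes, 2448 to 7089 for anterior lobe hormone cells, 103.2 to 141.4 for hypothalamic axons and 366.9 to 1021 for red cells. In such bulk samples fewer cells of a type and less RNA per cell cannot be told apart. Creb3l2 stood at 883.7 and 868.7 CPM in WT and 838.4 and 824.9 in the libraries labelled ACreb3l2, and Xbp1 at 365.9 and 413.9 in WT and 383.5 and 426.7 in those labelled AXBP1. The counts of a transgene's own gene were not higher past the test in either group, so they offer no check of the genotype labels. Creb3l2 was lower than WT in the double transgenic, at 653.3 and 432.7 CPM (log2 -0.69 ± 0.18, adjusted p = 0.0428, edgeR). In AXBP1 it stood at 580.3 and 703.5 CPM, also below both WT libraries, without passing the test (-0.45 ± 0.18, unadjusted p = 0.0315, adjusted p = 0.492, edgeR). Xbp1 stood at 282.1 and 283.6 CPM in ACreb3l2, likewise below WT without passing it (-0.46 ± 0.14, unadjusted p = 0.00816, adjusted p = 0.127, edgeR). With both transgenes Xbp1 stood at 543.4 and 396.0 CPM and overlapped WT (0.27 ± 0.14, adjusted p = 0.227, edgeR).

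In WT lobes the cargo receptors were abundant, apart from Kdelr3. By fragments scaled to transcript length and sequencing depth (FPKM, a level per length), Surf4 led with 159.9 ± 17.8 (mean ± SD, n = 2), followed by Ergic1 (154.7 ± 30.6) and Kdelr2 (153.4 ± 15.3). The ranges of these first 3 overlapped between neighbours. Lman1 (128.5 ± 3.83), Kdelr1 (126.2 ± 9.94) and Ergic3 (122.8 ± 11.8) came next and overlapped among themselves. Lman2 (70.1 ± 5.61), Mcfd2 (37.2 ± 4.12), Ergic2 (29.2 ± 4.98) and Kdelr3 (7.25 ± 1.40) stood apart from one another. Among genes with a mean above 1 FPKM over the 8 libraries, the WT level of Surf4 lay at percentile 97.2 and that of Kdelr3 at percentile 38.9.

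The KDEL receptors and the receptors Surf4 and Lman1 were lower in mice carrying ACreb3l2, alone or together with AXBP1, and the other 5 genes did not pass the test in any comparison. Against WT, 5 of 10 genes fell in the ACreb3l2 libraries and 0 rose (edgeR quasi-likelihood test, Benjamini-Hochberg adjusted p under 0.05 over all genes), where 2.5% of the 15580 genes tested fell. In the double transgenic libraries 5 of 10 fell and 0 rose, where 6.99% of all genes fell. In the AXBP1 libraries 0 of 10 passed the test, as did 0.0% of all genes. The median log2 change of the 10 genes was -0.47 for ACreb3l2, -0.21 for AXBP1 and -0.57 for the double transgenic, against 0.01, 0.00 and 0.01 for all genes. All 3 comparisons use the same WT libraries.

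**Figure D1:**
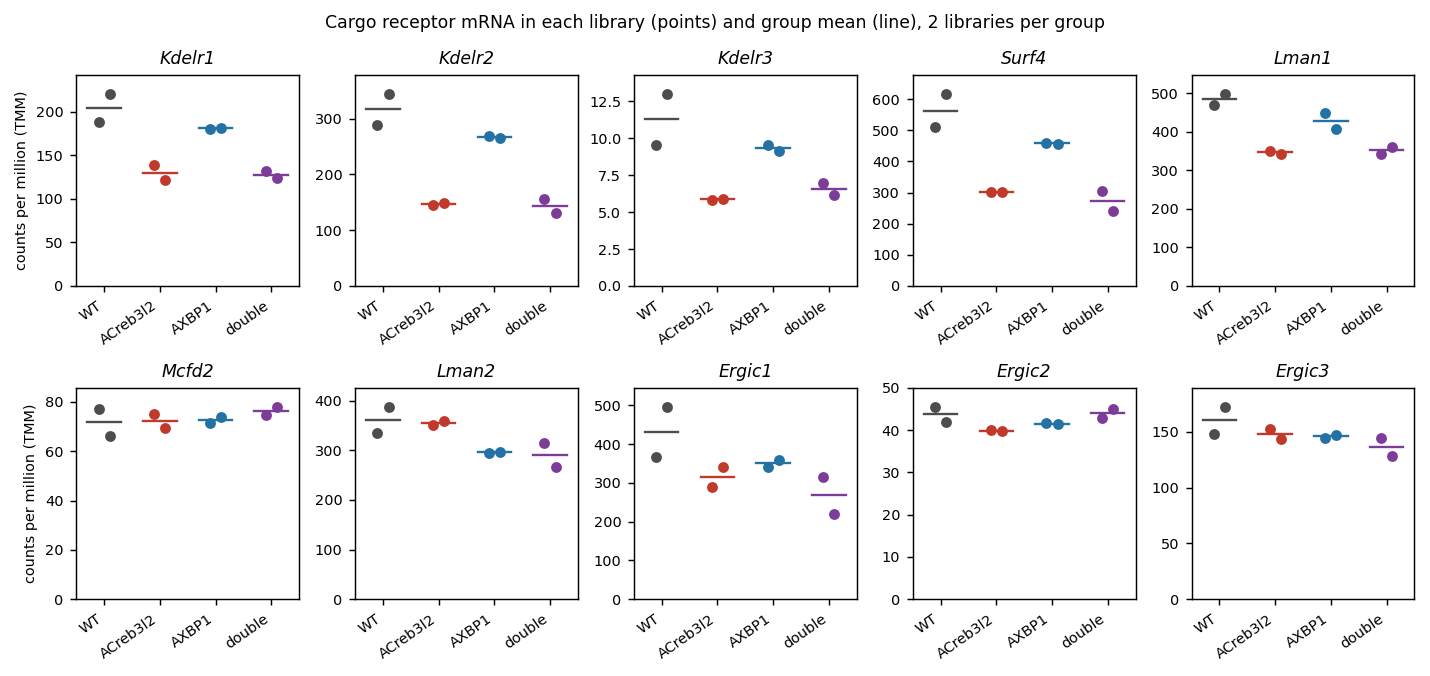
Level of each of the 10 genes, in TMM-scaled CPM (y axis, from 0), in every library of the 4 groups (x axis; double, ACreb3l2/AXBP1). Points are libraries and lines are means of 2. Kdelr1, Kdelr2, Kdelr3, Surf4 and Lman1 lie lower in both groups that carry ACreb3l2 than in WT or AXBP1.

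Kdelr2, on chr5:143403838-143421901 of mm10 (plus strand), encodes a KDEL receptor and had the largest change of the 10 in both groups with ACreb3l2. It was counted at 289.2 and 344.4 CPM in WT, 144.6 and 147.9 with ACreb3l2, 268.6 and 265.1 with AXBP1, and 155.1 and 131.5 with both transgenes. All 4 libraries with ACreb3l2 lay below the 4 without it. The log2 change against WT was -1.12 ± 0.11 (SE; adjusted p = 0.000961, edgeR) in ACreb3l2, a fall to 0.462 of the WT level, and -1.14 ± 0.11 (adjusted p = 0.000708) in the double transgenic. In AXBP1 it was -0.25 ± 0.11 (adjusted p = 0.496, 95% confidence interval -0.49 to -0.01). Both calls against WT held under all 16 alternative settings, each library left out in turn included.

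Kdelr1, on chr7:45872772-45883732 (plus strand), encodes the KDEL receptor next in abundance. Its libraries gave 188.1 and 220.9 CPM in WT, 138.8 and 121.8 with ACreb3l2, 180.3 and 182.0 with AXBP1, and 132.0 and 123.7 with both transgenes. The pattern over libraries was that of Kdelr2, with a smaller fall. Against WT the log2 change was -0.65 ± 0.10 in ACreb3l2 (adjusted p = 0.00856, edgeR), -0.18 ± 0.10 in AXBP1 (adjusted p = 0.562) and -0.68 ± 0.10 in the double transgenic (adjusted p = 0.00479). Leaving out WT replicate 2 (adjusted p = 0.0581) or ACreb3l2 replicate 2 (adjusted p = 0.0881) ended the first call, and leaving out ACreb3l2_AXBP1 replicate 2 (adjusted p = 0.0525) ended the call in the double transgenic.

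Kdelr3, on chr15:79516411-79527739 (plus strand), encodes the third KDEL receptor and was the least expressed of the 10 genes, with 168 to 387 raw counts per library. It stood at 9.55 and 13.0 CPM in WT, 5.80 and 5.91 with ACreb3l2, 9.56 and 9.14 with AXBP1, and 6.95 and 6.15 with both transgenes. Again the libraries with ACreb3l2 lay below all others. The log2 change was -0.94 ± 0.17 in ACreb3l2 (adjusted p = 0.0160, edgeR), -0.27 ± 0.16 in AXBP1 (adjusted p = 0.580) and -0.78 ± 0.17 in the double transgenic (adjusted p = 0.0196). Of the 16 alternatives, 4 ended the first call and 3 the last. Both were lost when only the groups compared were fitted (adjusted p = 0.05001, just above the threshold, and 0.0548) and without WT replicate 2 (0.0983 and 0.121), as was the first without ACreb3l2 replicate 1 (0.103) or replicate 2 (0.102) and the last without ACreb3l2_AXBP1 replicate 2 (0.170), all by edgeR.

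Summed over the family, KDEL receptor transcripts reached 268.0 and 305.6 FPKM in WT, 167.1 and 151.3 with ACreb3l2, 220.4 and 225.4 with AXBP1, and 151.6 and 150.7 with both transgenes. The sum was smaller in all 4 libraries with ACreb3l2 than in the 4 without it. Kdelr2 made up 53.2% and 53.7% of the sum in WT and 52.4% and 51.5% in AXBP1, but 43.9% and 47.2% in ACreb3l2 and 46.6% and 44.0% in the double transgenic. Kdelr1 was the larger part in those last 2 groups, with 50.2% to 53.8%, while Kdelr3 stayed between 2.33% and 2.79% in every library. The ratio of Kdelr2 to Kdelr1 was 1.20 and 1.23 in WT and 0.816 and 0.941 in ACreb3l2. The sums, shares and ratios are given as a description and were not tested. On the FPKM scale (pseudocount 1) most genes were lower in AXBP1 than in WT, with a median log2 change of -0.15 and 81.1% of genes below 0. With TMM-scaled counts the median was 0.00 and 49.7% of genes were below 0. The lower sum in AXBP1 is therefore in part a matter of scale, while shares and ratios within a library do not depend on it.

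**Figure D2:**
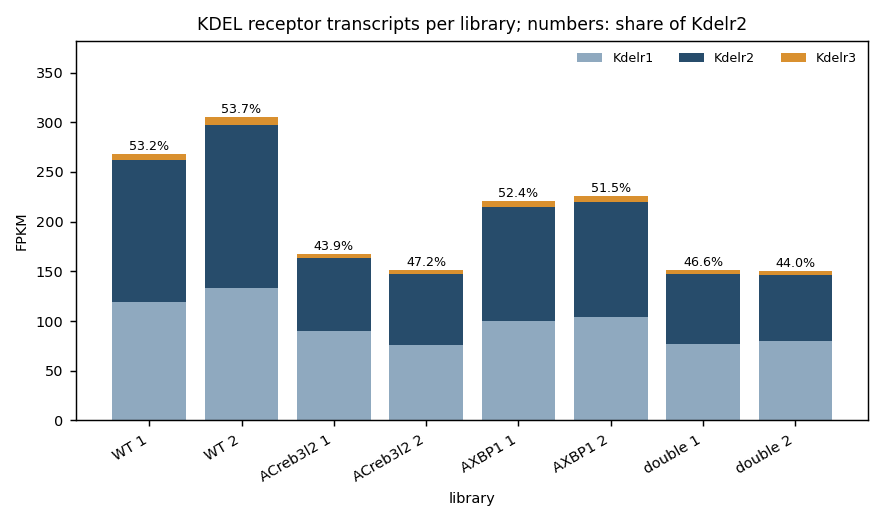
Summed FPKM of Kdelr1, Kdelr2 and Kdelr3 (y axis, stacked) in each library (x axis; double, ACreb3l2/AXBP1; numbers 1 and 2 are the replicates). The percentage above a bar is the share of Kdelr2, which is 53.2% and 53.7% in WT and 43.9% to 47.2% in the 4 libraries with ACreb3l2. Bar heights are on the FPKM scale, on which most genes are lower in AXBP1 than in WT.

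Surf4, on chr2:26920040-26933928 (minus strand), encodes a multispanning receptor that exports soluble cargo such as lipoproteins from the ER. It was counted at 508.8 and 617.0 CPM in WT, 300.8 and 301.0 with ACreb3l2, 459.2 and 455.8 with AXBP1, and 303.7 and 241.2 with both transgenes. The groups with ACreb3l2 did not overlap the other two. Against WT the log2 change was -0.90 ± 0.12 in ACreb3l2 (adjusted p = 0.00460, edgeR), -0.30 ± 0.12 in AXBP1 (adjusted p = 0.495) and -1.05 ± 0.13 in the double transgenic (adjusted p = 0.00224). The call in the double transgenic held in all 16 alternatives, and that in ACreb3l2 in all but the fit without ACreb3l2 replicate 2 (adjusted p = 0.0521).

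Lman1, also known as ERGIC-53, is a lectin that carries glycoproteins out of the ER, and it works with the soluble EF-hand protein Mcfd2. Lman1 stood at 470.0 and 499.2 CPM in WT, 350.9 and 343.1 with ACreb3l2, 450.3 and 406.9 with AXBP1, and 343.0 and 362.1 with both transgenes. Its fall was smaller than that of Kdelr2 or Surf4, but with little spread between replicates. The log2 change was -0.48 ± 0.09 in ACreb3l2 (adjusted p = 0.0182, edgeR), -0.18 ± 0.09 in AXBP1 (adjusted p = 0.528) and -0.46 ± 0.09 in the double transgenic (adjusted p = 0.0139). Of the 16 alternatives, 7 ended the first call and 4 the last. Among them were scaling by library size alone (adjusted p = 0.0691 and 0.0646) and the fits without WT replicate 2 (0.106 and 0.0752), ACreb3l2 replicate 1 (0.101, first call) or replicate 2 (0.141, first call), and ACreb3l2_AXBP1 replicate 2 (0.0635, last call).

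Mcfd2, on chr17:87254443-87265935 (minus strand), did not follow its partner. It was counted at 77.3 and 66.3 CPM in WT, 75.1 and 69.4 with ACreb3l2, 71.3 and 74.0 with AXBP1, and 74.6 and 77.9 with both transgenes, and all 3 transgenic groups overlapped WT. The log2 change was 0.01 (95% confidence interval -0.20 to 0.22) in ACreb3l2 and 0.09 (-0.12 to 0.29) in the double transgenic, with adjusted p of 0.974 and 0.563 by edgeR. The interval for ACreb3l2 lay wholly above that for Lman1 (-0.68 to -0.28). The FPKM ratio of Lman1 to Mcfd2 was 3.14 and 3.83 in WT, 2.36 and 2.47 with ACreb3l2, 3.26 and 2.70 with AXBP1, and 2.32 and 2.34 with both transgenes.

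Lman2, on chr13:55343833-55362783 (minus strand), encodes VIP36, a lectin of the early secretory pathway related to Lman1. It stood at 334.7 and 387.0 CPM in WT, 351.1 and 358.6 with ACreb3l2, 293.8 and 297.5 with AXBP1, and 314.0 and 266.5 with both transgenes. Here the low groups were those with AXBP1, and the ACreb3l2 libraries lay within the WT range. None of these differences passed the test: the log2 change was -0.02 ± 0.10 in ACreb3l2 (adjusted p = 0.934, edgeR), -0.29 ± 0.10 in AXBP1 (adjusted p = 0.484, unadjusted p = 0.0202) and -0.31 ± 0.10 in the double transgenic (adjusted p = 0.0804). The last was called in 4 of 16 alternatives, among them the fits without WT replicate 1 (adjusted p = 0.0443) and without ACreb3l2_AXBP1 replicate 1 (0.0368).

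Ergic1, Ergic2 and Ergic3 encode membrane proteins that cycle between the ER, the intermediate compartment and the cis-Golgi, and they form complexes with one another. Ergic1 (chr17:26561489-26656934, plus strand) was counted at 366.8 and 495.5 CPM in WT, 288.6 and 342.0 with ACreb3l2, 339.7 and 360.3 with AXBP1, and 315.4 and 220.6 with both transgenes. All 6 transgenic libraries were below both WT libraries, but the standard error of Ergic1 was the largest of the 10 genes. Its log2 change in ACreb3l2 was -0.45 ± 0.19 (adjusted p = 0.298, edgeR), and it was called there in 1 of 16 alternatives. The change was -0.30 ± 0.19 in AXBP1 (adjusted p = 0.600, edgeR) and -0.69 ± 0.20 in the double transgenic (adjusted p = 0.0644). The last was called in 6 of 16 alternatives, with adjusted p of 0.0343 without WT replicate 1 and 0.0195 without ACreb3l2_AXBP1 replicate 1.

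Ergic2 (chr6:148179079-148212374, minus strand) and Ergic3 (chr2:156008045-156018279, plus strand) did not pass the test in any comparison. Ergic2 stood at 45.5 and 42.0 CPM in WT, 39.9 and 39.8 with ACreb3l2, 41.6 and 41.3 with AXBP1, and 43.0 and 45.1 with both transgenes. Ergic3 stood at 148.5 and 172.2 CPM in WT, 152.8 and 144.0 with ACreb3l2, 144.6 and 147.6 with AXBP1, and 144.2 and 128.5 with both transgenes. Over the 3 comparisons with WT their log2 changes lay between -0.23 and 0.01. The 95% confidence interval of Ergic2 was -0.32 to 0.06 in ACreb3l2, and with both transgenes it was -0.18 to 0.20. That of Ergic3 ran from -0.33 to 0.10 in ACreb3l2 but lay below 0 in the double transgenic, from -0.45 to -0.02 (unadjusted p = 0.0360, adjusted p = 0.141, edgeR), where both libraries were lower than both of WT.

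**Figure D3:**
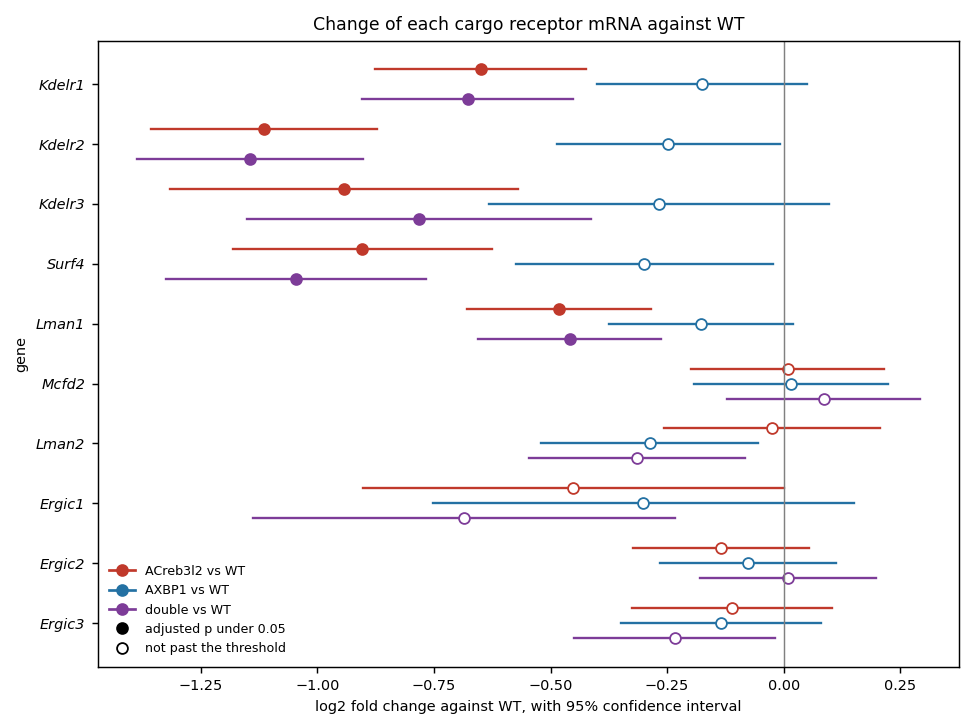
Log2 fold change of each gene (y axis) against WT in 3 groups, with 95% confidence intervals from the edgeR fit (x axis). Filled points have an adjusted p under 0.05; for Kdelr1, Kdelr2, Kdelr3, Surf4 and Lman1 both groups with ACreb3l2 are filled and lie to the left of 0, and no point of AXBP1 is filled.

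Melanotrope markers moved in part with these genes. Their summed level (Pomc, Pcsk2, Tbx19, Pax7, Drd2 and Scg2) was 114400 and 169600 CPM in WT, 126000 and 112900 with ACreb3l2, 104600 and 122600 with AXBP1, and 92170 and 67970 with both transgenes. Pomc alone made up most of this sum, with 106600 and 159600 CPM in WT and 85220 and 63150 with both transgenes. In ACreb3l2 none of the 6 markers passed the test, and their median log2 change was -0.20, beside 0.47 for the 6 markers of pituicytes and astrocytes, of which none passed either. In the double transgenic 2 of 6 fell, Tbx19 (log2 -0.88 ± 0.19, adjusted p = 0.0245, edgeR) and Scg2 (-0.57 ± 0.13, adjusted p = 0.0253), with a median of -0.61. Pomc (-0.84 ± 0.25, adjusted p = 0.06135, edgeR) and Pcsk2 (-0.66 ± 0.28, adjusted p = 0.162) did not pass the test. Drd2 (-0.19 ± 0.16, adjusted p = 0.464, edgeR) and Pax7 (-0.08 ± 0.19, adjusted p = 0.8215) changed little. There the pituicyte and astrocyte markers had a median of 0.34, and 1 of the 6, Aqp4, rose (0.51 ± 0.14, adjusted p = 0.0464, edgeR). Over all genes in this comparison 6.99% fell and 3.06% rose. The pituicyte and astrocyte markers summed to 399.5 and 329.4 CPM in WT, 473.8 and 387.6 with ACreb3l2, and 400.0 and 471.2 with both transgenes. All 6 endothelial markers had log2 values above 0 in the double transgenic, from 0.32 to 0.74 with a median of 0.51, and none passed the test. Their sum was 189.1 and 223.8 CPM there against 164.2 and 131.9 in WT, without overlap, and 222.6 and 175.0 with AXBP1, where their median was 0.42. In AXBP1 the summed anterior lobe markers were lower, at 2448 and 2556 CPM against 4749 and 7089 in WT and without overlap (median log2 -0.61, and 0.73 in ACreb3l2 against AXBP1). Fibroblast and pericyte markers summed to 975.1 and 863.3 CPM in AXBP1 against 841.2 and 679.7 in WT (median 0.30). No marker of either list passed the test in AXBP1. WT replicate 2 was high for Pomc (159600 CPM against 106600) and higher than WT replicate 1 for 8 of the 10 receptor genes. The part of these cell type markers in the changes of the receptors was not tested.

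Without adjustment, 6 of 10 genes had p under 0.05 in ACreb3l2, 3 of 10 in AXBP1 (Kdelr2, Surf4 and Lman2, p from 0.0202 to 0.0437, edgeR) and 8 of 10 in the double transgenic. Of the 15580 genes tested, 2610, 1554 and 4630 had an unadjusted p under 0.05 in these comparisons. For AXBP1, DESeq2 called 73 genes and 0 of these 10. The lower end of the 95% confidence interval in AXBP1 was -0.37 for Lman1, -0.40 for Kdelr1, -0.49 for Kdelr2 and -0.75 for Ergic1, the lowest of the 10, so for each gene a fall of up to that size is within the error. Counted by rank alone, both libraries lay below both WT libraries for 7 of 10 genes in ACreb3l2, 8 of 10 in AXBP1 and 8 of 10 in the double transgenic. The same held for 23.2%, 23.8% and 28.7% of all genes tested.

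Set directly against the AXBP1 libraries, Kdelr2 was lower in ACreb3l2 (log2 -0.87 ± 0.11, adjusted p = 0.00709, edgeR), and it was the single gene of 10 called, where 0.68% of all genes fell. Kdelr1 (-0.47 ± 0.10, adjusted p = 0.0814), Surf4 (-0.60 ± 0.12, adjusted p = 0.0735), Kdelr3 (-0.68 ± 0.17, adjusted p = 0.142) and Lman1 (-0.30 ± 0.09, adjusted p = 0.214) were lower in both ACreb3l2 libraries than in both of AXBP1 without passing the test. Lman2 stood the other way, at 0.26 ± 0.10 (adjusted p = 0.436). The call for Kdelr2 was lost when any library of either group was left out, with adjusted p from 0.0540 to 0.0865.

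In the double transgenic against AXBP1, Kdelr2 (log2 -0.90 ± 0.11, adjusted p = 0.00657, edgeR) and Surf4 (-0.75 ± 0.12, adjusted p = 0.0306) were lower, 2 of 10 genes, where 0.616% of all genes fell. Kdelr1 came next, at -0.50 ± 0.10 (adjusted p = 0.0667). Without AXBP1 replicate 1, AXBP1 replicate 2 or ACreb3l2_AXBP1 replicate 2 both calls were lost (adjusted p from 0.0789 to 0.281). Of the 16 alternatives, 3 ended the call for Kdelr2 and 8 that for Surf4. Surf4 was also lost without ACreb3l2 replicate 1 or replicate 2 (adjusted p = 0.0643 and 0.0648), with a replicate block (0.0672, edgeR) and on FPKM with a pseudocount of 1 or 0.1 (0.0643 and 0.0571, limma).

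Adding AXBP1 to ACreb3l2 changed none of the 10 genes by this test, and 0.0% of all genes were called in the double transgenic against ACreb3l2. For Kdelr2 the difference was -0.03 on the log2 scale, with a 95% confidence interval from -0.27 to 0.21, and for Surf4 it was -0.14 (-0.42 to 0.13). Lman2 had the lowest value, -0.29 ± 0.10 (adjusted p = 0.688, unadjusted p = 0.0193, edgeR), and both double transgenic libraries lay below both of ACreb3l2. Over all genes 1112 had an unadjusted p under 0.05 here, and DESeq2 called 36, none of them among the 10.

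The interaction asks whether the change in the double transgenic differs from the sum of both single changes. It was called for 0 of the 10 genes and for 0.0% of all genes, with 386 genes at an unadjusted p under 0.05 and 4 called by DESeq2. Its log2 values ran from -0.003 (Lman2) to 0.43 ± 0.24 (Kdelr3) and were above 0 for 9 of 10 genes, each with an adjusted p of 0.9997 (edgeR). The interval for Kdelr2 (0.22) ran from -0.12 to 0.56, so a double transgenic level somewhat above the sum of both changes was within the error. With the same WT libraries in every term, the 10 values are not separate observations.

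Soluble ER residents with a KDEL-type tail are the ligands of the KDEL receptors. Of 27 genes listed by hand as such, all tested, 5 fell in ACreb3l2, 0 in AXBP1 and 9 in the double transgenic. Among them 0 rose in any of these comparisons, beside the 2.5%, 0.0% and 6.99% of all genes given above that fell. No protein sequences were available, so the tails of the listed proteins were not checked. The median log2 change of the list was -0.20, -0.18 and -0.34. Those with the lowest p in the double transgenic were Rcn3, a calcium-binding protein of the ER lumen, the prolyl isomerases Fkbp9 and Fkbp14, and the thioredoxin-domain protein Txndc5.

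Rcn3 was counted at 278.3 and 376.6 CPM in WT, 91.6 and 78.3 with ACreb3l2, 266.4 and 281.7 with AXBP1, and 97.4 and 85.6 with both transgenes. Its log2 change was -1.95 ± 0.15 in ACreb3l2 (adjusted p = 0.000443, edgeR), -0.26 ± 0.14 in AXBP1 (adjusted p = 0.555) and -1.84 ± 0.15 in the double transgenic (adjusted p = 0.000584), a larger change than that of any of the 10 receptor genes. Fkbp9 fell from 275.2 and 288.5 CPM in WT to 156.5 and 140.0 in ACreb3l2 (log2 -0.93 ± 0.09, adjusted p = 0.000961) and 161.9 and 160.5 in the double transgenic (-0.81 ± 0.09, adjusted p = 0.00146). These genes, like the KDEL receptors, were low in both groups with ACreb3l2. Fkbp14 (log2 -0.66 and -0.63) and Txndc5 (-0.53 and -0.67) fell in both as well, and Colgalt1 was the other gene of the list called in ACreb3l2.

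Values are added for 5 abundant chaperones and folding enzymes of the list. P4hb (protein disulfide isomerase), Hspa5 (BiP), Hsp90b1, Calr and Hyou1 were chosen for their role and after their values were seen, and differences between them were not tested. P4hb stood at 1029 and 1230 CPM in WT, 794.1 and 775.1 with ACreb3l2, 911.4 and 975.3 with AXBP1, and 729.6 and 583.4 with both transgenes. It fell in the double transgenic (log2 -0.78 ± 0.13, adjusted p = 0.00726, edgeR) and missed the threshold in ACreb3l2 (-0.53 ± 0.13, adjusted p = 0.0596). The other 4 passed the test in no comparison with WT. Hspa5 stood at 2234 and 2535 CPM in WT and 2259 and 2512 in ACreb3l2 (log2 0.00 ± 0.14, 95% confidence interval -0.32 to 0.32, adjusted p = 0.999, edgeR). The log2 change of Hsp90b1 was 0.03 ± 0.11 and that of Calr -0.10 ± 0.15. In the double transgenic the log2 values of Hspa5, Hsp90b1 and Calr were -0.29, -0.15 and -0.37, with adjusted p from 0.144 to 0.395. Hyou1 stood at -0.20 ± 0.19 in ACreb3l2 (adjusted p = 0.652) and close to the threshold in the double transgenic, at -0.72 ± 0.19 (adjusted p = 0.0511, edgeR).

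**Figure D4:**
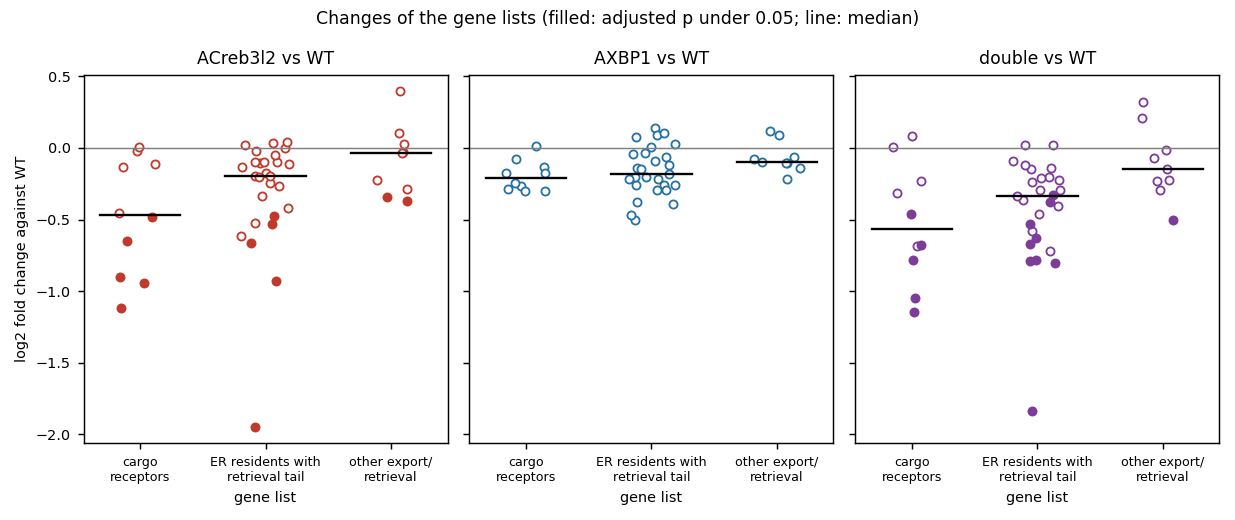
Log2 fold change against WT (y axis) of the 10 cargo receptors, the 27 ER residents listed by hand as having a retrieval tail (not checked in sequence) and the 9 tested genes of other export and retrieval receptors (x axis), in 3 panels for ACreb3l2, AXBP1 and the double transgenic. Each point is a gene, filled when its adjusted p is under 0.05, and the line is the list's median (-0.47, -0.20 and -0.04 in ACreb3l2); the lowest point in the outer panels is Rcn3.

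Among 12 other genes of ER export and retrieval receptors, 9 were tested and Cnih3, Lman1l and Mia2 were too low. Of the 9, 2 fell in ACreb3l2, 0 in AXBP1 and 1 in the double transgenic, with list medians of -0.04, -0.10 and -0.14. Over all genes 2.5%, 0.0% and 6.99% fell, so the single gene of 9 in the double transgenic is near the background. Mia3 (TANGO1), which helps to export bulky cargo such as collagen, went from 272.1 and 277.6 CPM in WT to 218.3 and 215.3 in ACreb3l2 (log2 -0.34 ± 0.08, adjusted p = 0.0442, edgeR) and 198.7 and 188.2 in the double transgenic (-0.51 ± 0.08, adjusted p = 0.00503). Rer1, a retrieval receptor for membrane proteins, went from 114.7 and 111.5 to 88.8 and 86.5 in ACreb3l2 (-0.37 ± 0.07, adjusted p = 0.0296), and its -0.23 ± 0.07 in the double transgenic missed the threshold (adjusted p = 0.0733). Tex261 (-0.22 in both) and the cornichon Cnih4 (0.03 and 0.21) did not pass.

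Known cargo of the receptors was little expressed in the lobe or did not move by this test. Among the cargo genes listed, Apob and F5 were too low to test, and F8, Ctsz and Ctsc, which are cargo of Lman1, were called in no comparison. Their log2 changes against WT lay between -0.15 and 0.25 over the 3 transgenic groups.

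Likeness between genes was taken as the root mean square difference of log2 CPM, each centred on its own mean, over the 8 libraries, where 0 is an identical profile. Within the 10 genes, Kdelr2 was nearest to Surf4 (0.104), Kdelr1 to Lman1 (0.127) and Kdelr3 (0.128), Lman2 to Ergic3 (0.0964) and Mcfd2 to Ergic2 (0.0665). Mcfd2 was nearer to Ergic2 than to its partner Lman1 (0.242). The profiles come from the libraries that gave the calls, so this likeness is a description and adds nothing independent to them. Outside them, the closest profiles to Kdelr2 were those of Gpr180 (0.0475), the COPII coat gene Sec24d (0.0475) and Arfgap1 (0.0592), which encodes a GTPase-activating protein of the COPI coat. The closest to Surf4 were Lrrc59 (0.0574), Alg3 (0.0608) and Slc35e1 (0.0623), and among the closest to Kdelr1 were Tmem184b (0.0450) and Sra1 (0.0472).

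Promoter sequences were read for genes that fell together and for Mcfd2, which did not, to show what each holds of the letters ACGT, the core shared by many sites of bZIP factors. RefSeq windows of GRCm38.p6, from 250 bases before the start to 50 after it, matched 8 of the 10 genes; Kdelr2 and Lman1 were not matched. The 4 windows below are those of Kdelr1 (chr7:45872590-45872889, plus strand), Kdelr3 (chr15:79516158-79516457, plus strand), Surf4 (chr2:26933462-26933761, minus strand) and Mcfd2 (chr17:87265898-87266197, minus strand), written 5′ to 3′ in the gene's direction, with matches to the motifs in capitals.
Kdelr1: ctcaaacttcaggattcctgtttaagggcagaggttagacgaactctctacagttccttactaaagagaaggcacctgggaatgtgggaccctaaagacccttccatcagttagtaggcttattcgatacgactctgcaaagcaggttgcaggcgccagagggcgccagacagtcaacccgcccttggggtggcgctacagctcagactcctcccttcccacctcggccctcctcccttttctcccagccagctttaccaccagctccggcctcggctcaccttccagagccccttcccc
Kdelr3: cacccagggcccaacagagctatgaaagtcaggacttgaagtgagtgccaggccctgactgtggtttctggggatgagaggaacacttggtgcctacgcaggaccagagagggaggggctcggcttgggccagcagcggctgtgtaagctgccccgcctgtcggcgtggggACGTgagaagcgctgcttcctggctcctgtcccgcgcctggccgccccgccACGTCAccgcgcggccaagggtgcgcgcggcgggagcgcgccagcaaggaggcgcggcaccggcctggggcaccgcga
Surf4: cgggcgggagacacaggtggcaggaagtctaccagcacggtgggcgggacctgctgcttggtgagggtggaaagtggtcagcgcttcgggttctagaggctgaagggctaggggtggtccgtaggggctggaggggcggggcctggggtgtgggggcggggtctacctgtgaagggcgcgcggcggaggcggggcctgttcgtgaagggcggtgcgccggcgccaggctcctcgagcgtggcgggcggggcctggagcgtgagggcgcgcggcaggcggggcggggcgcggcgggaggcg
Mcfd2: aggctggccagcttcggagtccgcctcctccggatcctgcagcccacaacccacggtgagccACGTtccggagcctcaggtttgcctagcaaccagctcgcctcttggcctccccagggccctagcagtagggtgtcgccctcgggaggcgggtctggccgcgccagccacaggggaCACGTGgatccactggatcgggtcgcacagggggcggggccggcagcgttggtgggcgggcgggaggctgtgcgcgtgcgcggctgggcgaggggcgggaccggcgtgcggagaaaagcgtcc
In the Kdelr3 window ACGT began at positions -79 and -28 from the start, and the 6 letters TGACGT, searched on both strands, overlapped the match at -28. In Mcfd2 ACGT began at -188 and -72, the last inside the E-box CACGTG at -73. Lman2 held 1 ACGT, and the windows of Kdelr1, Surf4, Ergic1, Ergic2 and Ergic3 held none. Thus 3 of 8 windows held ACGT, beside 30.9% of 32851 windows of the same length, while CACGTG was in 7.15% of them, TGACGT in 7.51% and the ER stress response element, found in none of the 8, in 0.119%. The RefSeq start of Surf4 lies 417 bases inside the gene as annotated by GENCODE M21, so its window covers another stretch than the most upstream start would.

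Reads of the 10 genes could be told apart from those of other genes with few exceptions. Of all stretches of 50 bases, the read length, in the annotated transcripts of Kdelr1, Kdelr2, Kdelr3, Lman1, Mcfd2, Ergic1 and Ergic3, 0.0% occurred in a transcript of another gene, so the KDEL receptors do not share such stretches with each other. For Surf4 it was 2.85%, all in Surf2, which overlaps it on the opposite strand, for Lman2 0.635% and for Ergic2 12.0%, most of it in Far2 on the opposite strand. Whether counting used strand is not given in the sources used here, so reads in these overlaps are uncertain. Surf2 was counted at 13.7 to 18.3 CPM and Far2 at 0.168 to 3.17 CPM over the 8 libraries, beside 241.2 to 617.0 for Surf4 and 39.8 to 45.5 for Ergic2.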

How the data were processed

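RNA was sequenced as paired 50-base reads from 8 libraries in 4 groups, which were taken from the labels alone. The deposited counts are whole reads per Ensembl gene, which the authors made by trimming with Trimmomatic, aligning to mm10 with Tophat and counting with HTSeq, without normalization. The deposited FPKM values were estimated by the authors, and their software list also names STAR and cufflinks. The annotation release and the strand setting are not given in the sources used here, and the sources differ on whether ribosomal depletion or a poly(A) kit was used.

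Genes with a mean count above 20 after median-ratio scaling (15580) were fitted in edgeR 4.0.16 (R 4.3.3) with TMM factors, all 8 libraries in 1 model with a mean per group and robust quasi-likelihood dispersions (common biological coefficient of variation 0.107). Tests were two-sided, p-values were adjusted by Benjamini-Hochberg over all genes tested, and the threshold was 0.05. The pipeline was tested on simulated data. With 28256086 to 37988912 counts per library, counting error weighs most on Kdelr3 (168 to 387 raw counts). FPKM served for levels between genes and, as log2(FPKM + 1) in limma 3.58.1 for genes with at least 1 FPKM, as an alternative, where fold changes of low genes are understated; DESeq2 1.42.0 was another. Median-ratio factors, library size alone, no filter, only the groups compared, a replicate block and leaving out each library were also tried. All 10 genes are named; of other lists, up to 4 genes with the lowest p in the double transgenic against WT. The members and lists were chosen with earlier results of these data known. Some genes of a list and of a likeness ranking are not reported here.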

Additional observations from a re-analysis of the deposited data

How the results depend on the processing

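Among the counts of the 10 genes past it, main values of 5 in ACreb3l2 against WT and 5 in the double transgenic against WT became 3 and 3 when only the groups compared were fitted, and ran from 1 to 5 and from 2 to 7 when a library was left out; the low ends were the fits without ACreb3l2 replicate 2 and without ACreb3l2_AXBP1 replicate 2, and without WT replicate 2 the counts were 2 and 3. Against AXBP1, the main count of 1 in ACreb3l2 became 2 with library size alone, 4 with no filter, 3 in DESeq2 and 2 with only the groups compared, and 0 to 3 with a library left out. The main count of 2 in the double transgenic became 4 with no filter, 1 on FPKM with a pseudocount of 1 and also of 0.1, and 0 to 3 with a library left out. The counts of 0 in AXBP1 against WT, the double transgenic against ACreb3l2 and the interaction were 0 in every alternative run. A fit of only the groups compared has no interaction and was not run for it. A lone library left in a group was assumed to vary like the others. The cause of these changes was not tested.

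Replicate numbers did not pair the libraries: deviations of same-numbered libraries correlated from -0.197 (WT with double transgenic) to 0.0887 over 6 pairs of groups. A replicate block changed 1 count of the 10 genes, to 1 for the double transgenic against AXBP1, where Surf4 was lost (adjusted p = 0.0672, edgeR), and gave 321 genes against 473 without it over the whole table in ACreb3l2 and 1113 against 1566 in the double transgenic.

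Signs turned only for values near 0. Lman2 in ACreb3l2 was 0.055 with library size alone and 0.0063 and 0.0064 on FPKM (pseudocounts 1 and 0.1), and -0.13 to 0.083 with a library left out. Mcfd2 with a library left out ran from -0.099 to 0.12 in ACreb3l2, -0.091 to 0.13 in AXBP1 and -0.026 to 0.20 in the double transgenic, and in AXBP1 it was -0.11 and -0.11 on FPKM. Ergic2 in the double transgenic was -0.16 and -0.17 on FPKM and -0.052 to 0.068 with a library left out. Of 528 alternative values for single genes, 465 kept direction and side of the threshold, 37 fell below it, 11 passed it and 15 turned.

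Over all genes, calls in ACreb3l2 against WT were 473, and 1455 with no filter, 751 in DESeq2, 304 with library size alone, 275 with only the groups compared and 241 to 248 on FPKM; in the double transgenic they were 1566, and 3209 with no filter, 654 with only the groups compared and 1004 to 1053 on FPKM. In AXBP1 they were 0, and 628 with no filter, 73 in DESeq2, 2 with only the groups compared and 9 to 12 on FPKM; in the double transgenic against ACreb3l2 0, 513 with no filter, 36 in DESeq2 and 2 on FPKM; for the interaction 0, 126 with no filter, 4 in DESeq2 and 2 to 4 on FPKM. Against AXBP1, calls in ACreb3l2 were 112, and 730 with no filter, 258 in DESeq2 and 27 to 28 on FPKM. In the double transgenic against AXBP1 they were 97, and 755 with no filter, 283 in DESeq2, 55 with library size alone and 30 to 35 on FPKM. Leaving out either AXBP1 replicate took both counts below all of these. Leaving out a library moved the calls in ACreb3l2 against WT between 152 and 623 and in the double transgenic against WT between 215 and 2050. Library size alone moved the median of all genes in the double transgenic against WT to 0.17 and turned the split of calls to 1104 higher and 546 lower, from 477 and 1089; the FPKM scale moved the median to -0.15 in AXBP1 against WT and to 0.17 in ACreb3l2 against AXBP1.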
